A study of Mus musculus with 2 samples.

Results

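The 7 genes described here are the neuregulins Nrg1, Nrg2 and Nrg3 and the ErbB receptors Erbb4, Erbb3, Erbb2 and Egfr. They were chosen by symbol among the 32285 genes of the matrices, and all 7 were present. Their RNA was counted in single nuclei of mouse hippocampus, in an experiment on wild-type human tau. In the AAV-TAU group, C57BL/6J mice had received an adeno-associated virus (AAV) with full-length wild-type human tau (2N4R) into the cerebral ventricles on both sides at postnatal day 0. In the AAV-STOP group the same route and day were used for a vector whose MAPT message stops early in translation and yields no tau. Human MAPT RNA delivered by AAV is thus common to both groups. Hippocampi were taken at 6 weeks of age, and each group is 1 library pooled from 3 mice.

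With 1 library per group there is no spread between mice and no test. Differences between the libraries are given as values, with exact 95% intervals that cover counting error only.

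Neuregulins are ligands with an EGF-like domain, most of them made as membrane proteins and released by proteases such as ADAM10, ADAM17 and BACE1. They bind ErbB3 and ErbB4. ErbB2 has no known ligand of its own and acts as a partner in receptor pairs, ErbB3 has an impaired kinase, and EGFR answers to EGF, TGF-alpha and related ligands. In the hippocampus ErbB4 is known for its place in GABAergic interneurons, where Nrg1 and ErbB4 act on inhibitory synapses.

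The AAV-TAU library held 19596 barcodes with 109428807 UMIs (counted RNA molecules), and the AAV-STOP library 20265 barcodes with 130252240 UMIs. After filters and removal of doublets, 17580 AAV-TAU and 17993 AAV-STOP nuclei were left, with medians of 4924 and 5533 UMIs. The median mitochondrial share was 0.282% in AAV-TAU and 0.174% in AAV-STOP nuclei, and 116 barcode sequences occurred in both libraries. Nuclei were clustered without the 7 genes and their pathway, and 26 of 46 clusters were named from markers, as "like" a type, into 17 classes. Of these, 12 had 100 or more nuclei in both libraries. Nuclei of no class made up 20.9% of AAV-TAU and 22.0% of AAV-STOP nuclei, and a habenula-like cluster held 99 AAV-TAU nuclei and no AAV-STOP nucleus. No gene named MAPT is in the matrices, so the vector was not checked by its RNA.

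Promoters are shown for Erbb4 and Nrg3, the receptor and the ligand with the most UMIs, and for Egfr, which was lower in AAV-TAU in each of the 6 classes compared. Each is the 250 bases before the RefSeq start in GRCm38.p6, 5′ to 3′ on the strand of the gene, at chr1:69108060-69108309 (minus), chr14:39473089-39473338 (minus) and chr11:16751953-16752202 (plus). Capitals mark a GC box.
Erbb4: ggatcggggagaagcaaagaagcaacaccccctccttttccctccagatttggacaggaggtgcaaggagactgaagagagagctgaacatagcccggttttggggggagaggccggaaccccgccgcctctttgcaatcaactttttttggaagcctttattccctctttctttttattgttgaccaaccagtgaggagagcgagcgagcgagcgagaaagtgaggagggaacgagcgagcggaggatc
Nrg3: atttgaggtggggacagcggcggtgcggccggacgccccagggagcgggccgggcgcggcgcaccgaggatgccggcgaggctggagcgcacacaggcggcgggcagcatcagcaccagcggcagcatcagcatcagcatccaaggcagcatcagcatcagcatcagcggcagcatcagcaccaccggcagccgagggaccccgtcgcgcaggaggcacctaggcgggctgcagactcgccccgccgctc
Egfr: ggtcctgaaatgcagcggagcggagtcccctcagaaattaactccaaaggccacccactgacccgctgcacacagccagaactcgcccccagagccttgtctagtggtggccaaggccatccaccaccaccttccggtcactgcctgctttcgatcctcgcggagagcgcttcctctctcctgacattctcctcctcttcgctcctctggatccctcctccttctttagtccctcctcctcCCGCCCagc
The GC box was searched as GGGCGG and CCGCCC, and the TATA box as TATAAA and TTTATA, which covers both strands. Erbb4 and Nrg3 held no GC box, Egfr held 1, and none of the 3 held a TATA box in this window. Over 32851 promoters of the same length, 32.7% held a GC box and 12.4% a TATA box. CpG dinucleotides numbered 12 in Erbb4, 27 in Nrg3 and 11 in Egfr, against a median of 6 over those promoters, where the Nrg3 count stood at the percentile 91.4. RefSeq promoters matched 4 of the 7 members, the other one being Erbb2.

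The genes differ in size, which matters for any comparison between them (GENCODE M21, GRCm38). Nrg1 lies on the minus strand of chromosome 8 from 31814551 to 32884029 and spans 1069 kb. Nrg3 spans 1104 kb on the minus strand of chromosome 14 (38368952 to 39473088). Erbb4 covers 1076 kb on the minus strand of chromosome 1 (68032186 to 69108059). Nrg2 is shorter, at 180 kb on the minus strand of chromosome 18 (36017652 to 36197380), and Egfr takes up 166 kb on the plus strand of chromosome 11 (16752203 to 16918158). The shortest are Erbb2, with 25.2 kb on the plus strand of chromosome 11 (98412470 to 98437716), and Erbb3, with 22.1 kb on the minus strand of chromosome 10 (128567523 to 128589652). Counting by strand is not given in the sources used here, so reads of Nrg3 and its antisense gene Nrg3os, of Egfr and Egfros, and of Erbb2 and Mien1 cannot be told apart with certainty. Erbb4 also overlaps 8 gene models on its own strand.

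Each of the ligands and receptors had its own distribution over the classes. Levels are CPM, the UMIs of a gene per 1000000 UMIs of all genes in the class. Nrg3 was high in every neuronal class, Nrg2 was highest in dentate granule-like neurons, and Nrg1 was highest in Cajal-Retzius-like and subicular or cortical-like neurons. Erbb4 was highest in inhibitory-like neurons and then in the oligodendrocyte lineage, Erbb3 in oligodendrocyte-like nuclei, and Egfr in fibroblast-like and astrocyte-like nuclei. Erbb2 was close to the floor of detection throughout.

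**Figure D1:**
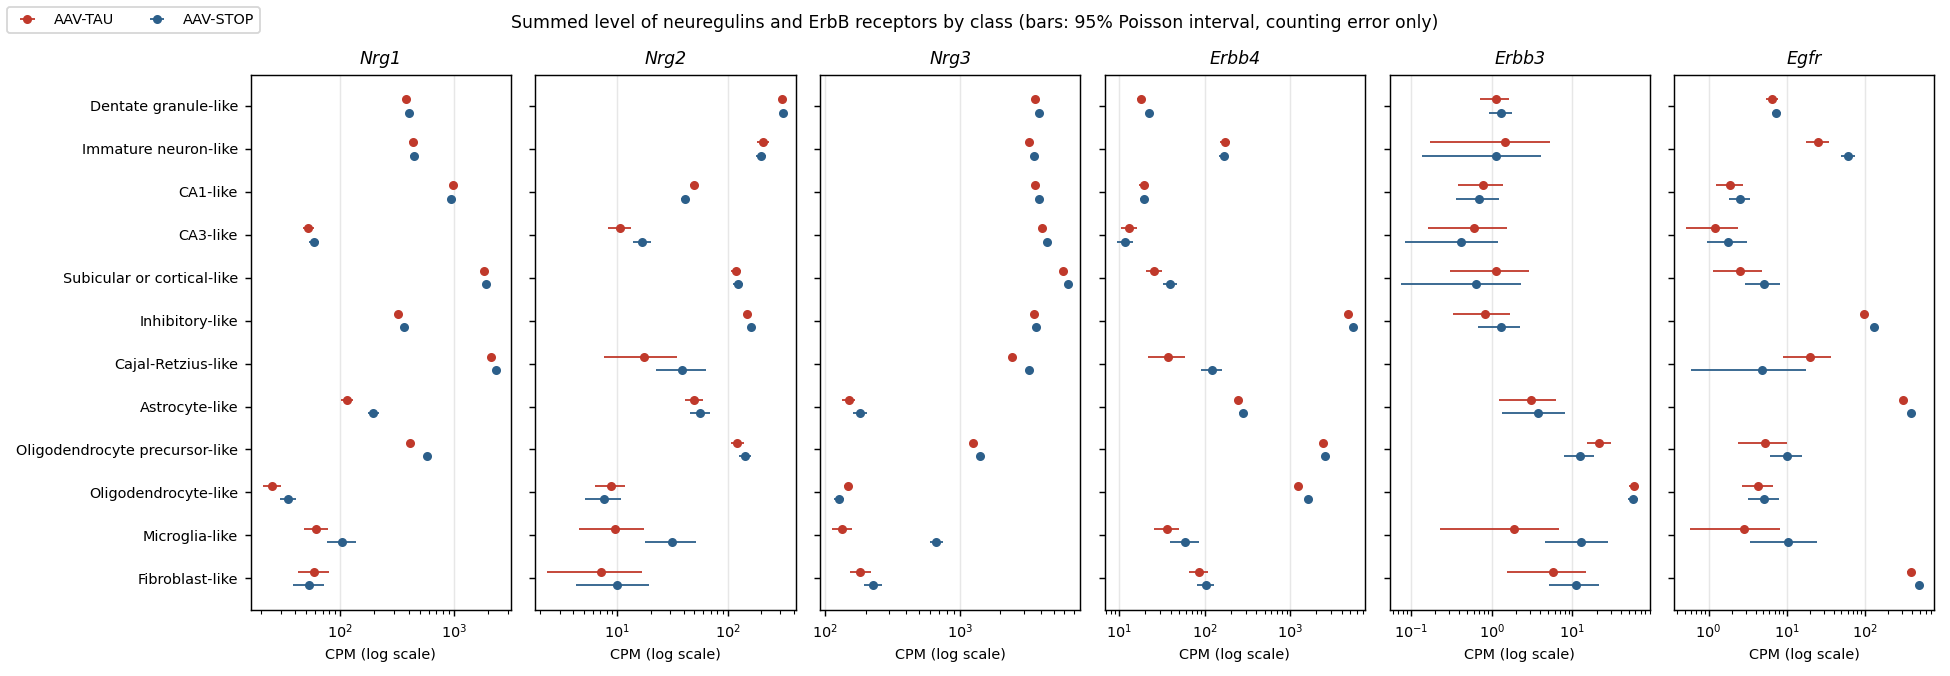
Level of 6 genes in each of the 12 classes with 100 or more nuclei in both libraries. Each point is the summed CPM of 1 library on a log axis, red for AAV-TAU and blue for AAV-STOP, with its exact 95% Poisson interval; a level of 0 has no point. The axes differ between genes, so positions compare classes and libraries within a gene. Erbb4 in inhibitory-like neurons sits at 4753 and 5344 CPM, and in dentate granule-like neurons at 18.05 and 22.57 CPM.

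Nrg1, the ligand studied most for synapses and myelin, had 2150 CPM in AAV-TAU and 2356 CPM in AAV-STOP Cajal-Retzius-like neurons, the early-born cells that make reelin. Subicular or cortical-like neurons followed with 1860 CPM in AAV-TAU and 1911 CPM in AAV-STOP. CA1-like neurons had 985 and 946 CPM. CA3-like neurons, their neighbours in the pyramidal layer, had 52.3 CPM in AAV-TAU and 58.7 CPM in AAV-STOP. At an equal depth of 1600 UMIs per nucleus, 61.2% of AAV-TAU and 60.4% of AAV-STOP CA1-like nuclei held a Nrg1 UMI, against 6.04% and 8.64% of CA3-like nuclei. Without thinning these shares were 86.8% and 86.6% in CA1-like, and 22.5% and 26.6% in CA3-like nuclei. Glial precursors ranked among the neurons, with oligodendrocyte precursor-like nuclei at 415 CPM in AAV-TAU and 577 CPM in AAV-STOP. Immature neuron-like nuclei (442 and 445 CPM), dentate granule-like (380 and 405 CPM) and inhibitory-like neurons (319 and 368 CPM) came next. The lowest were oligodendrocyte-like nuclei, at 24.8 CPM in AAV-TAU and 34.7 CPM in AAV-STOP. The intervals of precursor-like and immature neuron-like nuclei overlapped in AAV-TAU, those of fibroblast-like and CA3-like nuclei in both libraries, and those of microglia-like and fibroblast-like nuclei in AAV-TAU; other neighbours in the order did not overlap in either library.

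About as much Nrg1 was found outside the named classes as in them. Nuclei of no class held 47.3% of its UMIs in AAV-TAU and 51.8% in AAV-STOP. Cluster 36, led by Ntng1 and Dpp10 among named genes and with 77 AAV-TAU and 30 AAV-STOP nuclei, had 4820 and 5920 CPM. Cluster 13, led by Sgcz, Vwc2l and Tshz2, had 2864 CPM in AAV-TAU and 3187 CPM in AAV-STOP, and cluster 9, led by Unc5d and Pde11a, had 2869 and 3016 CPM. These are higher than any named class, and the clusters are given no cell type here because their markers did not pass the rule. Within CA1-like neurons Nrg1 also divided the clusters. Cluster 4 had 1346 CPM in AAV-TAU and 1262 CPM in AAV-STOP, and cluster 2 had 693 and 743 CPM, a difference seen in both libraries. Nrg3, by contrast, was at 3791 and 4023 CPM in cluster 4, and at 3527 and 3795 CPM in cluster 2.

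**Figure D2:**
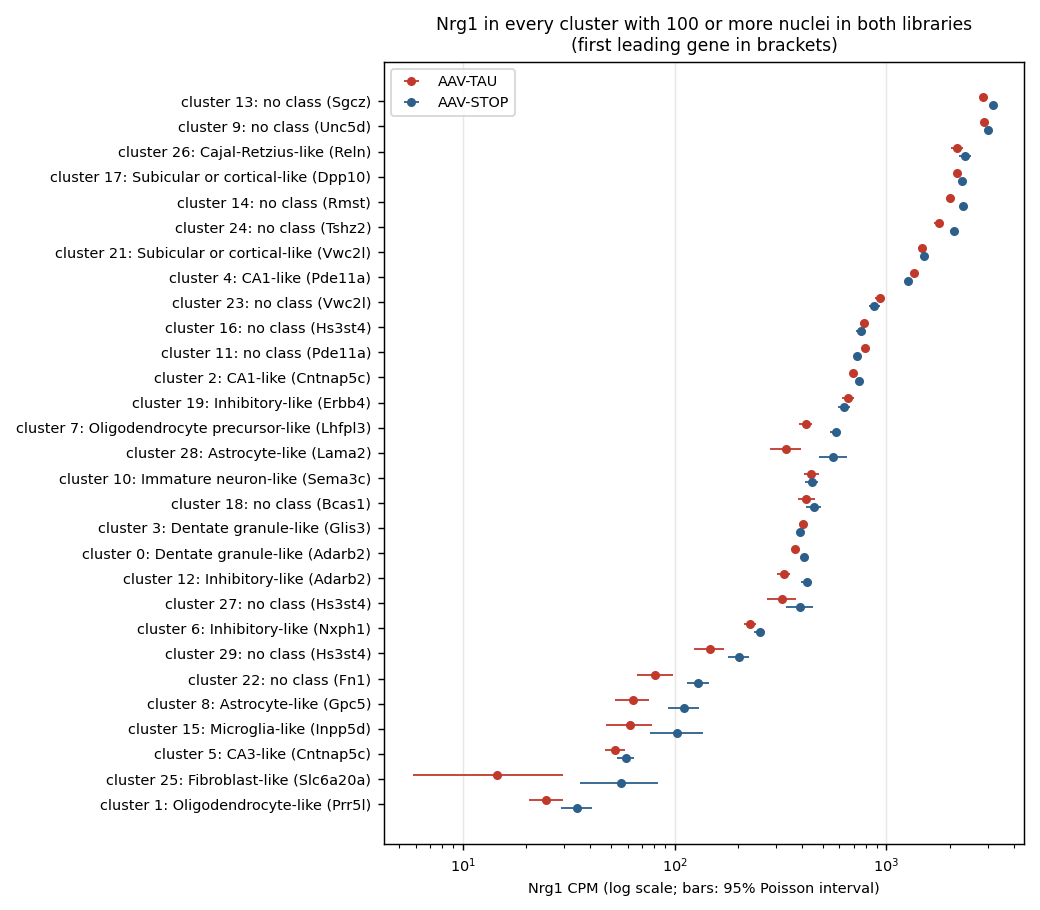
Nrg1 CPM, on a log axis, in each cluster with 100 or more nuclei in both libraries, ordered by the mean of the libraries. Points are the summed level in AAV-TAU (red) and AAV-STOP (blue) with exact 95% Poisson intervals, and brackets give the first leading gene of the cluster. Clusters 13 and 9, of no class, stand at the top with 2864 to 3187 CPM, and oligodendrocyte-like cluster 1 at the bottom with 24.8 and 34.7 CPM.

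Nrg2, a close relative of Nrg1 with its own pattern of expression in the brain, was highest in dentate granule-like neurons. They had 312 CPM in AAV-TAU and 315 CPM in AAV-STOP, and held 58.0% and 57.8% of all Nrg2 UMIs. Immature neuron-like nuclei had 209 and 201 CPM, and inhibitory-like neurons 149 and 164 CPM. Among inhibitory subtypes the Lamp5-like neurons stood out with 271 CPM in AAV-TAU and 292 CPM in AAV-STOP, while the other 4 lay between 112 and 144 CPM. The pyramidal classes were low, with 49.1 and 40.9 CPM in CA1-like neurons. CA3-like neurons had 10.6 CPM in AAV-TAU and 16.8 CPM in AAV-STOP. At equal depth 38.2% of granule-like nuclei in each library held a Nrg2 UMI (74.5% and 77.1% without thinning). In oligodendrocyte-like nuclei the thinned shares were 1.23% in AAV-TAU and 0.912% in AAV-STOP.

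Nrg3, a ligand of ErbB4 made mostly by neurons, was the most abundant of the 7 genes in both libraries, also per length. Over all nuclei it reached 3.04 CPM per kb of gene in AAV-TAU and 3.37 CPM per kb in AAV-STOP, where Nrg2, the next, had 0.724 and 0.815 CPM per kb. Such values per kb assume reads along the whole gene. Subicular or cortical-like neurons had the highest level, 5855 CPM in AAV-TAU and 6328 CPM in AAV-STOP. The next were lower and closer to each other: 4102 and 4422 CPM in CA3-like, 3645 and 3884 CPM in CA1-like, and 3591 and 3859 CPM in granule-like neurons. Vip-like neurons had the highest level of the inhibitory subtypes, 6427 CPM in AAV-TAU and 6628 CPM in AAV-STOP. Precursor-like nuclei were the only glial class above 1000 CPM, with 1259 and 1420 CPM. Oligodendrocyte-like nuclei had 148 and 127 CPM, and 16.3% and 16.2% of them held a Nrg3 UMI at equal depth, against 98.6% and 98.8% of granule-like nuclei. For the share in oligodendrocyte-like nuclei, free RNA from neurons was not tested; their median depth was 2350 and 2535 UMIs, against 5135 and 5373 UMIs in granule-like nuclei.

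Erbb4, the receptor for all 3 ligands, was concentrated in inhibitory-like neurons. They had 4753 CPM in AAV-TAU and 5344 CPM in AAV-STOP, and held 68.5% and 66.0% of all Erbb4 UMIs in 7.88% and 7.82% of the nuclei. At equal depth 83.9% and 84.6% of inhibitory-like nuclei had an Erbb4 UMI, against 2.70% and 3.27% of granule-like nuclei. Without thinning the shares were 93.2% and 92.7%, against 8.48% and 10.4%. CA1-like neurons had 19.4 and 19.3 CPM, and CA3-like neurons 87 and 85 UMIs in all. Both have high Nrg3. Over 16 classes, Pearson's r of log2(CPM + 5) was -0.33 between Erbb4 and Nrg3 and -0.14 between Erbb4 and Nrg1, a description in which all points share the same libraries.

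Inhibitory subtypes differed several-fold in Erbb4. Lamp5-like neurons had 8430 CPM in AAV-TAU and 9081 CPM in AAV-STOP, and Pvalb-like neurons 8196 and 8440 CPM. Vip-like neurons had 6938 and 8392 CPM, Cck-like neurons 2777 and 3383 CPM, and Sst-like neurons 1070 and 1195 CPM. The order was the same in both libraries, but the intervals of Lamp5-like and Pvalb-like neurons overlapped in AAV-TAU, and those of Pvalb-like and Vip-like neurons in AAV-STOP. In the clustering of all nuclei, Erbb4 is itself a leading gene of 3 of the inhibitory-like clusters by fold, although it was kept out. When inhibitory-like nuclei were clustered alone, it was not among the leading genes of any cluster. Egfr had another order: 365 and 475 CPM in Lamp5-like, 320 and 425 CPM in Vip-like, 32.0 and 33.6 CPM in Cck-like, 13.4 and 23.5 CPM in Pvalb-like, and 3.65 and 6.59 CPM in Sst-like neurons. Pvalb-like neurons, with as much Erbb4 as Lamp5-like neurons or slightly less, thus had little Egfr. Nrg1 was also highest in Lamp5-like neurons, with 681 CPM in AAV-TAU and 646 CPM in AAV-STOP.

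**Figure D3:**
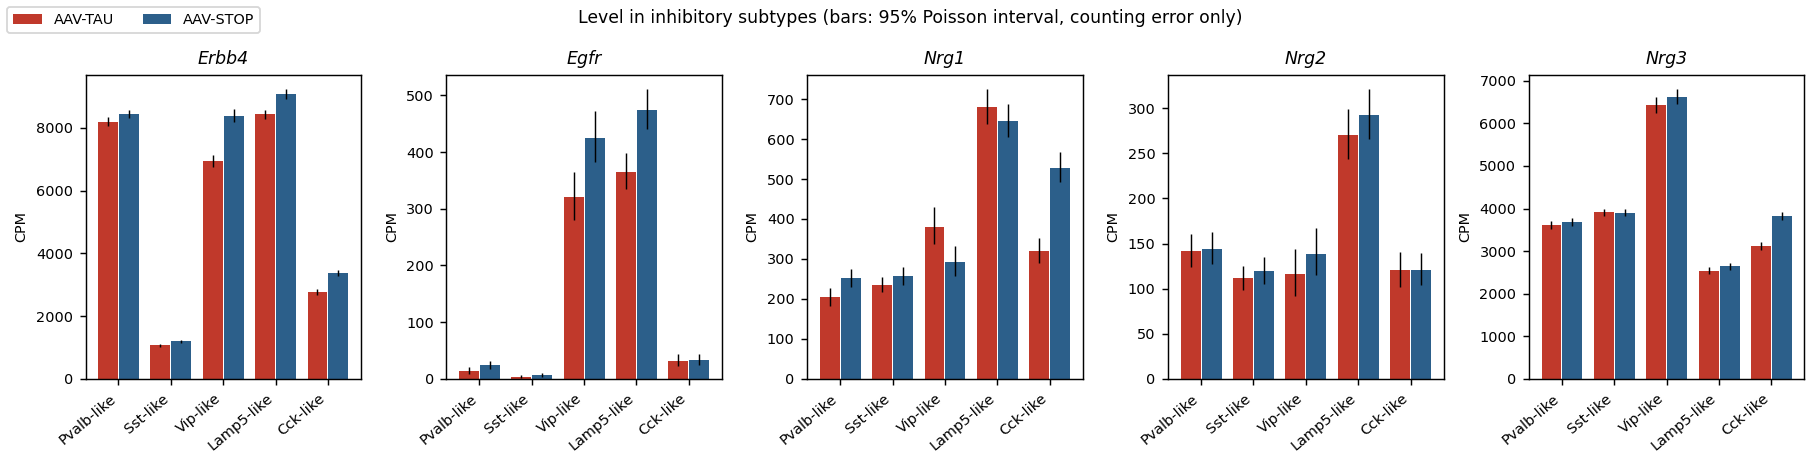
CPM of Erbb4, Egfr, Nrg1, Nrg2 and Nrg3 in 5 inhibitory subtypes. Bars are the summed level in AAV-TAU (red, left) and AAV-STOP (blue, right) with exact 95% Poisson intervals, and each panel has its own scale from 0. Erbb4 is high in Pvalb-like, Vip-like and Lamp5-like neurons, from 6938 to 9081 CPM, and Egfr in Vip-like and Lamp5-like neurons, from 320 to 475 CPM.

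Along the oligodendrocyte lineage Erbb4 was lower and Erbb3 higher in oligodendrocyte-like than in precursor-like nuclei, with Erbb4 far above Erbb3 in CPM throughout. Erbb4 had 2377 CPM in AAV-TAU and 2517 CPM in AAV-STOP precursor-like nuclei, and 1235 and 1614 CPM in oligodendrocyte-like nuclei. Cluster 18, a cluster of no class led by Bcas1, Mbp and Tcf7l2 with 249 AAV-TAU and 301 AAV-STOP nuclei, had 2885 and 3358 CPM. Erbb3, a receptor for Nrg1 and Nrg2 known in myelinating glia, had 21.5 and 12.2 CPM in precursor-like nuclei, 56.1 and 57.1 CPM in cluster 18, and 57.3 and 56.2 CPM in oligodendrocyte-like nuclei. Per kb of gene, oligodendrocyte-like nuclei had 2.59 and 2.54 CPM of Erbb3 and 1.15 and 1.50 CPM of Erbb4. Precursor-like nuclei had 0.972 and 0.553 CPM of Erbb3 per kb, and 2.21 and 2.34 CPM of Erbb4. The shorter gene was thus the higher of the pair in oligodendrocyte-like nuclei on this scale only, which assumes reads along the whole gene. The ligands did not change at the same step. Nrg1 had 415 and 577 CPM in precursor-like nuclei, 418 and 453 CPM in cluster 18, and 24.8 and 34.7 CPM in oligodendrocyte-like nuclei. Nrg3 had 1259 and 1420 CPM in precursor-like nuclei, 257 and 206 CPM in cluster 18, and 148 and 127 CPM in oligodendrocyte-like nuclei.

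**Figure D4:**
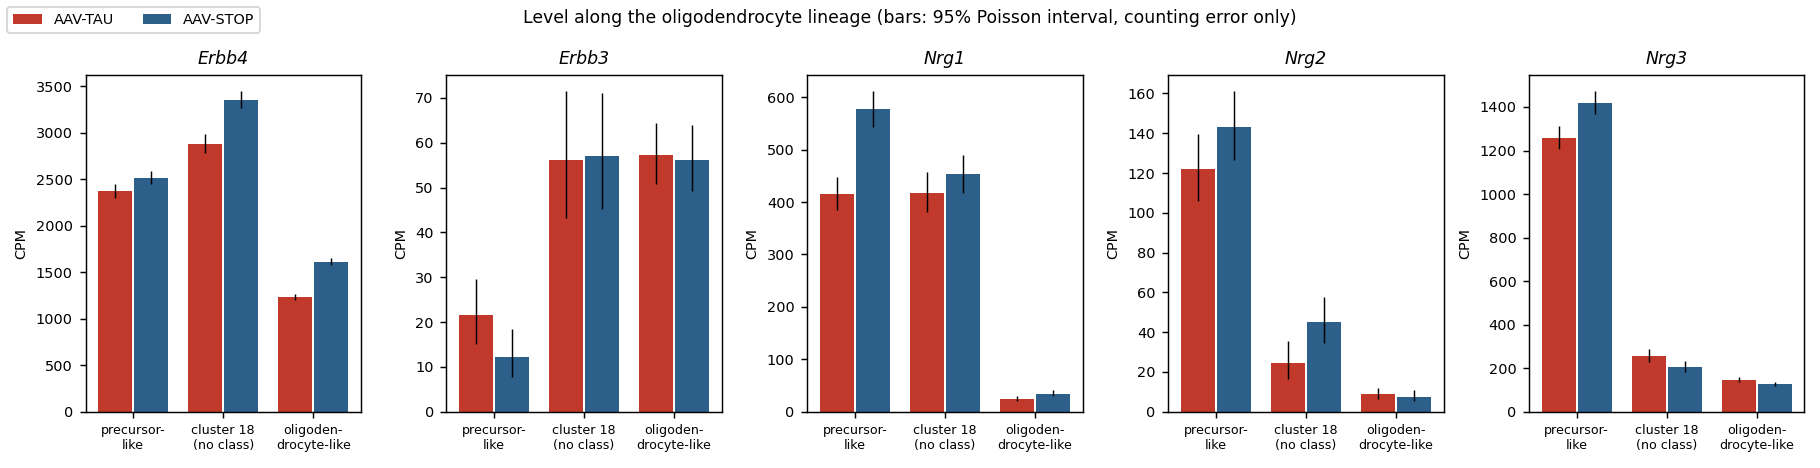
CPM of Erbb4, Erbb3, Nrg1, Nrg2 and Nrg3 in oligodendrocyte precursor-like nuclei, in cluster 18 (no class) and in oligodendrocyte-like nuclei. Bars are AAV-TAU (red, left) and AAV-STOP (blue, right) with exact 95% Poisson intervals, on scales from 0. Erbb4 is highest in cluster 18 at 2885 and 3358 CPM, and Nrg1 drops between cluster 18 and oligodendrocyte-like nuclei to 24.8 and 34.7 CPM.

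Outside this lineage Erbb3 was at the edge of detection. It had 25 UMIs in 4188 AAV-TAU and 38 UMIs in 5196 AAV-STOP granule-like nuclei, or 1.12 and 1.29 CPM. Cajal-Retzius-like nuclei had no Erbb3 UMI, where 3 UMIs would have been 6.55 CPM in AAV-TAU and 7.28 CPM in AAV-STOP. Erbb2, the partner receptor, had 29 UMIs in all AAV-TAU nuclei and 16 in all AAV-STOP nuclei. Of these, 15 and 3 were in astrocyte-like and 6 and 6 in fibroblast-like nuclei. Endothelial-like nuclei, too few to be compared (88 in AAV-TAU, 59 in AAV-STOP), held 3 and 4. Inhibitory-like neurons, the main holders of Erbb4, had 0 Erbb2 UMIs in either library, where 3 UMIs would have been 0.3497 CPM in AAV-TAU and 0.324 CPM in AAV-STOP. Erbb2 was not detectable there at this depth in nuclear RNA.

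Egfr, the receptor for EGF and TGF-alpha, was low in CA1-like, CA3-like and granule-like neurons and highest in fibroblast-like and astrocyte-like nuclei. Fibroblast-like nuclei had 387 CPM in AAV-TAU and 495 CPM in AAV-STOP, astrocyte-like nuclei 309 and 391 CPM, and inhibitory-like neurons 97.1 and 131 CPM. Granule-like neurons had 6.49 and 7.39 CPM, and CA3-like neurons 1.20 and 1.79 CPM. At equal depth 33.9% of AAV-TAU and 41.8% of AAV-STOP astrocyte-like nuclei held an Egfr UMI, against 0.666% and 0.521% of oligodendrocyte-like nuclei. Without thinning these shares were 46.7% and 56.6%, against 1.03% and 1.30%. The place of fibroblast-like nuclei at the top depends on the clustering, since astrocyte-like nuclei came first at resolution 2, and no fibroblast-like class formed at resolution 0.5 or with doublets kept. The fibroblast-like class holds a pair of clusters that differ in Egfr: cluster 31, led by Bnc2, had 798 and 787 CPM, and cluster 25, led by Slc6a20a, had 201 and 234 CPM.

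Between the libraries, most member levels were lower in AAV-TAU, by small amounts. A value was compared where the gene had 50 or more UMIs over both libraries in the class, which left 54 of 84 values. Ratios are log2((AAV-TAU CPM + 5)/(AAV-STOP CPM + 5)), and a value is called past the fold at an absolute log2 ratio of 0.32 or more. The ratio was below 0 in 43 and above 0 in 11 of the 54 values. Over all genes, 39.2% of 116326 such values were below 0. Past the fold, 15 values were lower and 1 was higher in AAV-TAU, where 4.78% of the values of all genes were lower and 11.3% higher. Of the values of genes over 500 kb, the size of Nrg1, Nrg3 and Erbb4, 75.4% were below 0, 16.3% lower past the fold and 3.16% higher past it. These genes had median ratios below 0 in all 12 classes, between -0.88 in microglia-like and -0.04 in CA3-like nuclei. Genes of 100 to 500 kb, the size of Nrg2 and Egfr, had medians between -0.13 and 0.00, and genes under 10 kb between 0.10 and 0.34. What gene length or RNA quality contributes to the ratios was not tested.

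Nrg3 was lower in AAV-TAU in 11 of 12 classes, within the fold in 9 of them. In granule-like neurons its ratio was -0.10, beside a median of -0.07 for genes over 500 kb. CA1-like neurons had -0.09 beside -0.04, and CA3-like neurons -0.11 beside -0.04. The exception was oligodendrocyte-like nuclei at 0.21. Cajal-Retzius-like neurons passed the fold, with 2457 CPM in AAV-TAU and 3273 CPM in AAV-STOP (0.751-fold, interval 0.693 to 0.813), in a class where 16.7% of all genes were past the fold on the lower side and 20.3% on the higher side. In those nuclei the summed dentate granule markers were at 945 CPM in AAV-TAU and 1725 CPM in AAV-STOP, with 1 of 8 markers higher in AAV-TAU, and their part in the result was not tested. At a mitochondrial share of at most 0.2% the ratio was -0.32, under the fold.

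In microglia-like nuclei Nrg3 was at 133 CPM in AAV-TAU and 667 CPM in AAV-STOP, a ratio of -2.28 (0.1998-fold, interval 0.163 to 0.244). Here 15.6% of genes were past the fold on the lower side, and genes over 500 kb had a median of -0.88. The UMIs lay in few nuclei: 70 AAV-STOP nuclei held one, and 5 of them held 50.8% of the UMIs, 1 nucleus alone 69 of 317. In AAV-TAU 108 nuclei held one, and the top 5 held 17.7%. Astrocyte markers in the same nuclei summed to 424 CPM in AAV-TAU and 764 CPM in AAV-STOP, with 0 of 7 higher in AAV-TAU. Precursor markers summed to 143 and 364 CPM, with 1 of 7 higher. Other lists went both ways. CA1 markers summed to 507 and 436 CPM (5 of 5 higher) and oligodendrocyte markers to 1507 and 1313 CPM (7 of 9 higher). Inhibitory markers summed to 180 and 158 CPM (3 of 6 higher), and dentate granule markers to 1779 and 2052 CPM (2 of 8 higher). For the neuronal classes with the most Nrg3, subicular or cortical markers summed to 433 and 471 CPM (2 of 7 higher). CA3 markers summed to 143 and 225 CPM (3 of 7 higher). The part of these lists in the result was not tested. With doublets kept the ratio was -1.32, and at a mitochondrial share of at most 0.2% it was -3.25.

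Nrg1 was lower past the fold in 4 of the 12 classes, all 4 of them glial. In astrocyte-like nuclei it had 114 CPM in AAV-TAU and 195 CPM in AAV-STOP, 0.585-fold (interval 0.495 to 0.691), where 7.97% of genes were past the fold on the lower side. Both clusters of the class showed it, cluster 8 with 63.3 and 111 CPM and cluster 28 with 334 and 562 CPM. Neuronal marker lists went both ways in these nuclei. Immature neuron markers, 0 of 6 higher in AAV-TAU, summed to 68.4 and 92.7 CPM, and dentate granule markers to 2161 and 2323 CPM with 5 of 8 higher. CA3 markers summed to 1016 and 1138 CPM with 5 of 7 higher. Subicular or cortical markers summed to 1771 and 1570 CPM (5 of 7 higher) and inhibitory markers to 120 and 88.4 CPM (5 of 6 higher). The part of these lists in the result was not tested. In precursor-like nuclei Nrg1 was at 0.720-fold (interval 0.654 to 0.792), with 6.69% of genes past the fold on the lower side. There 34.7% of AAV-TAU and 46.4% of AAV-STOP nuclei held a Nrg1 UMI at equal depth (47.0% and 59.6% without thinning), so that the difference was spread over many nuclei. The ratio of -0.47 was -0.77 at a mitochondrial share of at most 0.2%.

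The other 2 classes rest on less. Oligodendrocyte-like nuclei had 120 Nrg1 UMIs in AAV-TAU and 142 in AAV-STOP, 0.715-fold (interval 0.556 to 0.919) against a background of 3.77% on the lower side, and the ratio was -0.04 with doublets kept and -0.20 at a mitochondrial share of at most 0.2%. Microglia-like nuclei had 65 UMIs in AAV-TAU, 60% of them in 5 nuclei, and 49 in AAV-STOP, 67.3% in 5 nuclei, and their ratio of -0.70 became 1.47 at a mitochondrial share of at most 0.2%, with fewer than 50 UMIs left. In the 7 neuronal classes compared Nrg1 stayed within the fold, from -0.20 in inhibitory-like to 0.06 in CA1-like neurons. Within the inhibitory-like neurons the subtypes differed: Vip-like neurons were past the fold on the higher side (1.30-fold, interval 1.09 to 1.56, background 17.3%) and Cck-like neurons on the lower side (0.607-fold, interval 0.537 to 0.685, background 7.16%). Sst-like neurons, where 4.69% of genes were past it on the lower side, were at -0.12 and had no member past the fold. Whether the ratio differs between glial and neuronal classes was not tested.

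Nrg2 passed the fold in 1 class. CA3-like neurons had 71 UMIs or 10.6 CPM in AAV-TAU, and 122 UMIs or 16.8 CPM in AAV-STOP (0.632-fold, interval 0.465 to 0.854), where 1.29% of genes were past the fold on the lower side and 6.43% on the higher side. The UMIs were spread over 58 AAV-TAU and 97 AAV-STOP nuclei, with at most 3 in 1 nucleus. In granule-like neurons, where Nrg2 is highest, the levels of 312 CPM in AAV-TAU and 315 CPM in AAV-STOP differed by 0.991-fold (interval 0.961 to 1.02).

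Erbb4 was lower past the fold in oligodendrocyte-like nuclei, with 1235 CPM in AAV-TAU and 1614 CPM in AAV-STOP (0.765-fold, interval 0.739 to 0.793). This is the value past the fold with the most UMIs, 5974 in AAV-TAU and 6610 in AAV-STOP. A UMI was held by 75.5% of AAV-TAU and 82.4% of AAV-STOP nuclei at equal depth (84.8% and 90.7% without thinning). The ratio of -0.38 compares with a median of -0.13 for genes over 500 kb in this class. It was between -0.45 and -0.32 under the 10 alternatives that recompute the ratio, and it did not reach a fold of 1.5. Inhibitory markers in these nuclei summed to 133 CPM in AAV-TAU and 100 CPM in AAV-STOP, with 5 of 6 higher in AAV-TAU. The oligodendrocyte markers of the class summed to 17464 CPM in AAV-TAU and 19055 CPM in AAV-STOP, with 2 of 9 higher in AAV-TAU, and the part of either list in the result was not tested. Cluster 18 had 0.859-fold as much Erbb4 (interval 0.821 to 0.898) and precursor-like nuclei 0.944-fold (interval 0.905 to 0.985), both within the fold. Inhibitory-like neurons had 0.889-fold as much (interval 0.878 to 0.901), also within it, and among subtypes the ratio was between -0.28 in Cck-like and -0.04 in Pvalb-like neurons.

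The remaining Erbb4 values past the fold come from classes with little Erbb4 and from few nuclei. Subicular or cortical-like neurons had 92 UMIs in AAV-TAU and 125 in AAV-STOP, of which 1 AAV-STOP nucleus held 43, against 2.91% of genes past the fold on the lower side, and the ratio of -0.53 became 0.09 at equal depth, where fewer than 50 UMIs were left, -0.06 with doublets kept, -0.05 at resolution 0.5 and -0.17 as a mean over nuclei. In Cajal-Retzius-like nuclei 17 UMIs were counted in AAV-TAU and 50 in AAV-STOP, 27 of those in 1 nucleus, and the ratio of -1.59 became -0.69 at equal depth and -3.90 at the mitochondrial limit of 0.2%, both with fewer than 50 UMIs. Microglia-like nuclei had 38 UMIs in AAV-TAU and 28 in AAV-STOP, or 35.9 and 58.9 CPM, and their ratio of -0.64 became 0.26 at a mitochondrial share of at most 0.2%, with fewer than 50 UMIs left.

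Members were past the fold in 8 of the 11 clusters of no class with 100 or more nuclei in both libraries. Each of the 11 had 2 to 5 members compared. By cluster, 2.27% to 16.9% of all genes were lower past the fold and 9.79% to 22% higher. Erbb4 was lower in clusters 9, 13, 16 and 27 and higher in cluster 11, with 37.8 CPM in AAV-TAU and 29.1 CPM in AAV-STOP (background 9.79%). In cluster 16 it had 26.5 and 74.9 CPM (background 3.96%), and in cluster 27 it had 35.2 and 76.7 CPM (background 16.9%). Nrg1 was lower in cluster 22, led by Fn1 and Tshz2 among others, with 80.9 CPM in AAV-TAU and 129 CPM in AAV-STOP (background 6.26%), and in cluster 29, led by Hs3st4, with 146 and 201 CPM (background 9%). Cluster 13 had 14.5 CPM of Erbb4 in AAV-TAU and 79.0 CPM in AAV-STOP, on 35 and 178 UMIs, where 4.11% of genes were past the fold on the lower side. Cluster 9 had 24.8 and 50.9 CPM of Erbb4 and 92.2 and 128 CPM of Nrg2, both past the fold on the lower side (background 6.1%), and 8.73 and 4.19 CPM of Egfr, past it on the higher side (background 22%). In cluster 18 Nrg2 was lower past the fold, with 24.6 CPM in AAV-TAU and 45.0 CPM in AAV-STOP (background 8.36%). Spread over nuclei and other clusterings were not examined for these clusters.

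Over the 12 classes, Erbb3 gave the only value past the fold on the higher side. Precursor-like nuclei had 37 UMIs or 21.5 CPM in AAV-TAU and 23 UMIs or 12.2 CPM in AAV-STOP, 1.76-fold with an interval of 1.02 to 3.09. In this class 16.1% of genes were past the fold on the higher side. Nearly every UMI was in a nucleus of its own, 34 nuclei in AAV-TAU and 23 in AAV-STOP. The ratio of 0.62 was 0.33 at a mitochondrial share of at most 0.2% and 0.37 after thinning, both with fewer than 50 UMIs left. Oligodendrocyte-like nuclei, with 277 and 230 UMIs, differed by 1.02-fold (interval 0.853 to 1.22).

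Egfr was below 0 in all 6 classes compared and lower past the fold in 4 of them. Among genes of 100 to 500 kb, 38.5% (astrocyte-like) to 50.7% (CA1-like) were above 0 in these classes. By class, 0.0903% (granule-like) to 16.2% (fibroblast-like) of all genes were lower past the fold. Astrocyte-like nuclei were at 0.789-fold (interval 0.708 to 0.879, background 7.97%). Both of their clusters were lower, cluster 8 with 321 and 397 CPM and cluster 28 with 255 and 365 CPM. Astrocyte markers of the class summed to 10608 CPM in AAV-TAU and 11724 CPM in AAV-STOP, with 2 of 7 higher in AAV-TAU. Their part in the result was not tested. Inhibitory-like neurons were at 0.741-fold (interval 0.677 to 0.809), where 1.21% of genes were past the fold on the lower side. Lamp5-like neurons (0.769-fold, interval 0.685 to 0.863, background 5.98%) and Vip-like neurons (0.753-fold, interval 0.635 to 0.893, background 10.1%), the subtypes with most Egfr, were also past it. So were Pvalb-like neurons on 22 and 45 UMIs (0.571-fold, background 6.05%). The Lamp5-like ratio of -0.37 was -0.12 with members among the clustering genes, -0.27 with doublets kept, -0.31 at resolution 2 and -0.17 at a mitochondrial share of at most 0.2%, and the Vip-like ratio of -0.40 was -0.16 at that limit. The astrocyte-like ratio of -0.34 was -0.30 at resolution 0.5 and -0.32 at 2000 or more UMIs, and the inhibitory-like ratio of -0.42 was -0.29 at resolution 2, each just under the fold.

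The other Egfr values past the fold come from classes whose nuclei are uneven in Egfr. Fibroblast-like nuclei were at 0.781-fold (interval 0.667 to 0.914) against a background of 16.2% on the lower and 20.6% on the higher side. Their fibroblast markers summed to 2961 CPM in AAV-TAU and 3735 CPM in AAV-STOP, with 5 of 8 higher in AAV-TAU. Choroid plexus markers there summed to 470 and 149 CPM (6 of 6 higher), and the part of either list was not tested. Within cluster 31 the ratio was 0.02 and within cluster 25 -0.21, while cluster 31, the one with more Egfr, held 69 AAV-TAU and 121 AAV-STOP nuclei. The ratio of -0.35 for the class was -0.21 at resolution 2, -0.19 at 2000 or more UMIs and -0.58 as a mean over nuclei. In immature neuron-like nuclei Egfr was at 25.3 CPM in AAV-TAU and 61.0 CPM in AAV-STOP (0.414-fold, interval 0.274 to 0.611, background 6.56%). A UMI was held by 22 AAV-TAU nuclei (4.98%) and by 26 AAV-STOP nuclei (4.74%), so the difference lay in the UMIs per nucleus. The 5 richest nuclei held 48.6% of the UMIs in AAV-TAU and 63.0% in AAV-STOP, and the most in 1 nucleus was 5 and 20.

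**Figure D5:**
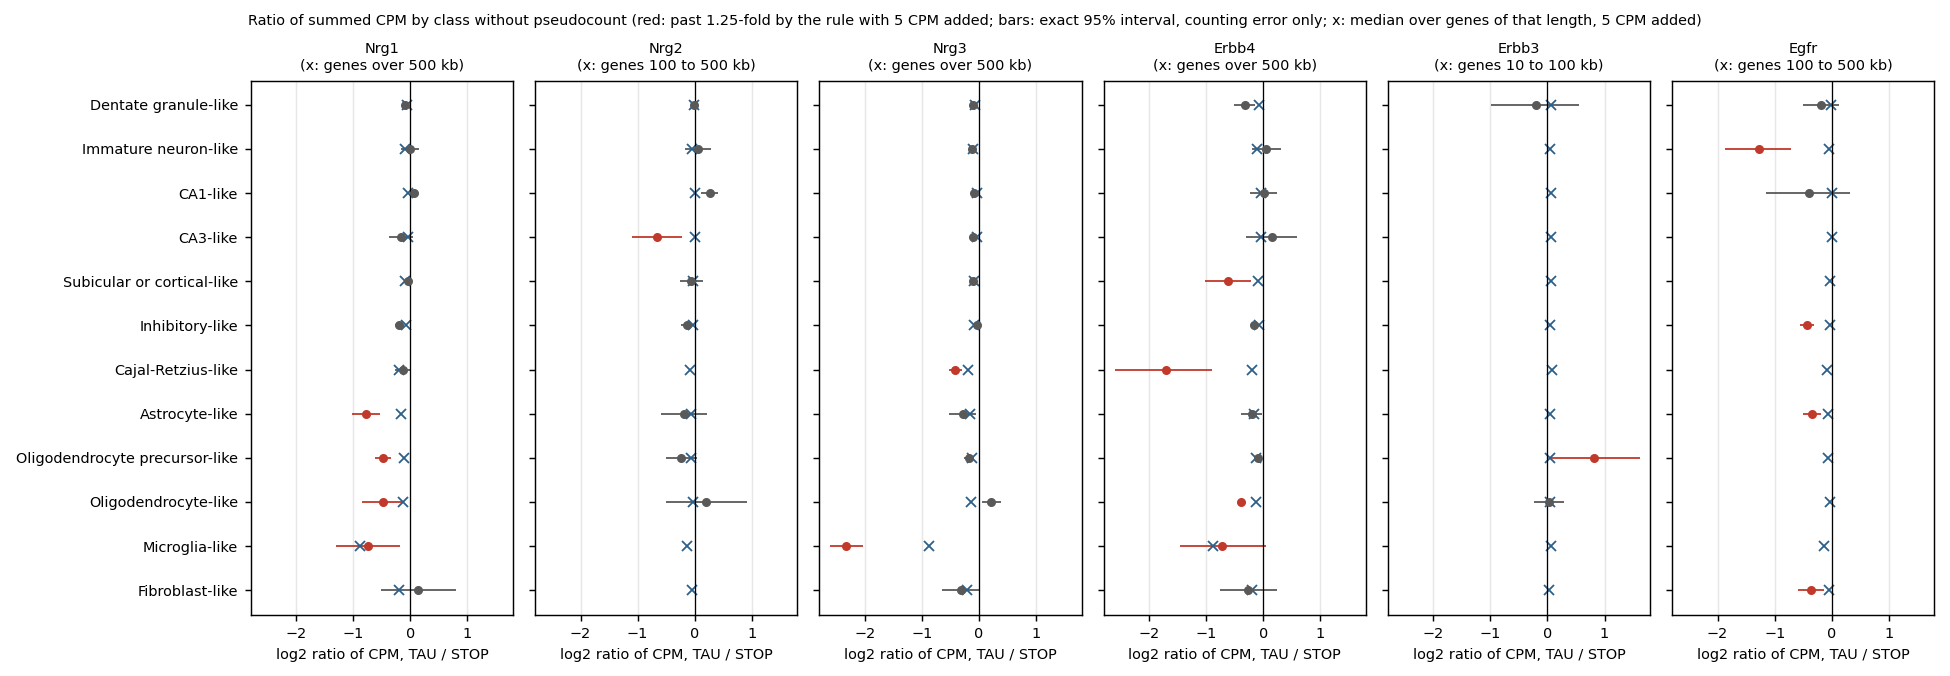
Log2 ratio of CPM, AAV-TAU over AAV-STOP, for 6 genes in the classes where the gene had 50 or more UMIs. Points carry exact 95% intervals for counting error and use no pseudocount, red where the value is past the fold with 5 CPM added, and crosses mark the median of genes of similar length. Egfr lies below 0 in all 6 classes shown, and Nrg3 below 0 in 11 of 12.

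The rest of the pathway did not share one direction. Of 74 listed genes, 1 was past the fold in granule-like neurons, with backgrounds of 3.79% of all genes higher and 0.0903% lower. It was Spred1, an inhibitor of Ras signalling, at 60.1 CPM in AAV-TAU and 79.1 CPM in AAV-STOP. In CA1-like neurons 2 were higher (background 4.35%) and 1 was lower (background 0.15%). Errfi1, a feedback inhibitor of ErbB kinases, had 69.6 CPM in AAV-TAU and 51.3 CPM in AAV-STOP CA1-like neurons, and the adaptor Shc3 had 41.3 and 53.3 CPM. Inhibitory-like neurons had 2 higher of 66 tested, Akt2 and Hras (background 6.11%), and none lower. In precursor-like nuclei 9 of 62 were higher (background 16.1%) and 2 lower (background 6.69%), the lower pair including Lrig1, a negative regulator of ErbB receptors, at 16.9 CPM in AAV-TAU and 29.3 CPM in AAV-STOP. Oligodendrocyte-like nuclei had 5 of 61 higher (background 14.9%) and 2 lower (background 3.77%). Astrocyte-like nuclei had 5 higher (background 17%) and 5 lower (background 7.97%) of 60 tested. More were lower than higher in Cajal-Retzius-like neurons, with 2 higher (background 20.3%) and 7 lower (background 16.7%) of 29. The same held for microglia-like nuclei, with 6 higher (background 21.9%) and 9 lower (background 15.6%) of 46. Fibroblast-like nuclei had 7 higher (background 20.6%) and 9 lower (background 16.2%) of 50. Hras, a short gene, was past the fold on the higher side in 6 classes, with 47.1 CPM in AAV-TAU and 24.2 CPM in AAV-STOP oligodendrocyte-like nuclei. The median ratio of the list was between -0.06 and 0.04 over the 12 classes, and that of all tested genes between 0.02 and 0.06.

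For the pattern over 16 classes, the most alike among 7949 genes were sought by Pearson's r of log2(CPM + 5), a description in which all points share 2 libraries. Nrg1 was most like Kcnh7 (r = 0.92), a potassium channel gene, and Nrg2 most like Shisa9 (0.93), an AMPA receptor partner of dentate granule cells. Nrg3 was most like Nrg3os (0.99), which overlaps it, and Rims1 (0.98), a protein of the presynaptic active zone. Erbb4 was most like Sox2ot (0.95), Erbb3 like Gatm (0.92), Sh3tc2 (0.92) and the myelin lipid enzyme gene Ugt8a (0.90), and Erbb2, on few UMIs, like Atp13a5 (0.98). Egfr was most like Nfyc (0.82).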

How the data were processed

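Nuclei of pooled hippocampi of 3 mice per group were measured as 1 library per group with the Chromium 3′ kit v3.1, with about 20000 nuclei loaded. The deposited matrices hold UMI counts per gene and filtered barcode, on mm10 per the submitters' processing notes, which name Cell Ranger 4.0 and Seurat 4.4.0, while the file headers name Cell Ranger 8.0.1. Whether intronic reads were counted is not given in the sources used here. Barcodes had to reach 500 UMIs and 300 genes and stay within 5% of mitochondrial UMIs, which 2 AAV-TAU and 4 AAV-STOP barcodes failed. Doublets were scored against simulated ones and left out (10.3% of AAV-TAU and 11.2% of AAV-STOP barcodes). Clustering used 3000 variable genes, without the members and pathway genes, 30 principal components, 15 neighbours and leiden at resolution 1 (leidenalg 0.10.2, numpy 2.4.6, scipy 1.17.1, Python 3.11.15), with no integration. A cluster was named where its best marker list led by 0.3 with a mean log2 of at least 1.6 and 3 or more raised markers; inhibitory-like nuclei were clustered again, with a mean of at least 1. Naming thresholds were set after seeing the data. The members, lists and pathway genes were chosen with earlier results of these data known. Named were all 7 members, the 2 highest and 2 lowest pathway genes per class and the 3 genes most alike in pattern; of these only some are printed.

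UMIs were summed per class and library and given as CPM. Counts carry exact Poisson, shares exact Clopper-Pearson, and ratios exact conditional intervals, at 95%, all for counting error only. Classes needed 100 nuclei in both libraries, and a floor is 3 UMIs. Shares were taken after thinning each nucleus to 1600 UMIs, with no nucleus left out. The fold rule was tested on simulated data. Alternatives were median-of-ratios scaling, 1 CPM as pseudocount, a fold of 1.5, no filter on low counts, doublets kept, resolutions 2 and 0.5, members among the clustering genes, 2000 or more UMIs per nucleus, thinning, the mean over nuclei and a mitochondrial share of at most 0.2%. Lengths and positions are from GENCODE M21 (GRCm38), promoters from RefSeq (GRCm38.p6).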

Additional observations from a re-analysis of the deposited data

Results flagged for a closer look

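Nrg1 moved in opposite directions past the fold in 2 inhibitory subtypes. Vip-like neurons had 381 CPM in AAV-TAU and 292 CPM in AAV-STOP, a log2 ratio of 0.38 (1.30-fold, counting interval 1.09 to 1.56, on 270 and 240 UMIs), where 17.3% of genes were past the fold on the higher side. Cck-like neurons had 321 CPM in AAV-TAU and 528 CPM in AAV-STOP, a log2 ratio of -0.71 (0.607-fold, counting interval 0.537 to 0.685, on 411 and 770 UMIs), where 7.16% were past it on the lower side. The difference between these subtypes was not tested, as there is 1 library per group. Under 7 alternatives chosen after seeing the data, the Vip-like ratio lay between 0.36 and 0.87 and the Cck-like ratio between -1.28 and -0.40. At resolutions 2 and 0.5, where the largest cluster nearest to the Cck markers was not named for want of markers, Cck-like neurons were 85 AAV-TAU and 80 AAV-STOP nuclei, and 83 and 76 nuclei.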

How the results depend on the processing

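No paired analysis was possible because each group is 1 pooled library, and no replicate could be left out for the same reason. Of the 16 member values past the fold, 13 kept their sign in every alternative that gave a value. In the 10 alternatives that recompute the ratio, 5 of them also stayed past the log2 limit of 0.32, with 50 or more UMIs in each. They were Egfr in immature neuron-like, Erbb4 in oligodendrocyte-like, Nrg1 in astrocyte-like and precursor-like, and Nrg3 in microglia-like nuclei. The fold of 1.5 and the lack of a filter on low counts are not among those 10. At a fold of 1.5, Erbb4 in oligodendrocyte-like (log2 ratio -0.38) and Nrg1 in precursor-like nuclei (-0.47) were no longer past the fold. The sign turned for Erbb4 in subicular or cortical-like neurons on thinning (0.0932), and for Nrg1 (1.47) and Erbb4 (0.26) in microglia-like nuclei at a mitochondrial share of at most 0.2%, which left 134 AAV-TAU and 67 AAV-STOP nuclei of that class. The cause was not tested. Of all 54 compared values, 45 kept their sign at that limit, and 48 at resolution 2 and after thinning. It was 51 or more in the other alternatives with a value for all 54. Member values higher in AAV-TAU past the fold numbered 1; the count was 2 with members and pathway genes among the clustering genes, 2 with 2000 or more UMIs per nucleus, 0 after thinning, 2 at the mitochondrial limit and 3 with no filter on low counts. After thinning fewer values had 50 UMIs (45 in place of 54). The 15 lower values became 6 at a fold of 1.5. For these settings the share of all genes past the fold is not given here, so the counts have no background. The pathway counts over all classes were 44 higher and 42 lower of 678 values, where 11.3% of all values were higher and 4.78% lower. They became 81 and 77 with no filter, and 8 and 15 at a fold of 1.5, likewise without a background. Scaling by the median of ratios shifted classes by 0.02 to 0.09 (log2). With doublets kept no value was had for CA1-like and fibroblast-like nuclei, and at resolution 0.5 none for fibroblast-like nuclei, because those classes did not form. Depth limits Erbb2 and Erbb3 most: Erbb2 reached 50 UMIs in no class and Erbb3 in 3.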

Other observations

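Classes with under 100 nuclei in a library were not compared, and some of their values are given here. Choroid plexus-like nuclei (45 in AAV-TAU, 28 in AAV-STOP) had 1039 CPM of Erbb4 in AAV-TAU and 882 CPM in AAV-STOP, on 190 and 102 UMIs. The habenula-like cluster, of AAV-TAU nuclei only, had 1477 CPM of Erbb4 and 1144 CPM of Nrg1.

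Egfr was also found in dividing and border cells. Of the pair of cycling-like clusters, cluster 42 had 269 CPM of Egfr in AAV-TAU and 934 CPM in AAV-STOP, on 32 and 92 UMIs from 31 nuclei each, and little Erbb4 (227 and 304.5 CPM). Cluster 41 had the reverse, with 2171 and 2148 CPM of Erbb4 and 17.4 and 15.1 CPM of Egfr. Border macrophage-like nuclei (64 and 31) had 144 CPM of Egfr in AAV-TAU and 299 CPM in AAV-STOP, on 24 and 27 UMIs.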
